A study of Mus musculus with 6 samples.

Results

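Oncofetal regulators are genes that are active in the embryo, are switched down as tissues mature and are switched on again in many tumours. The 8 described here are the let-7 antagonists Lin28a and Lin28b, the RNA-binding proteins Igf2bp1, Igf2bp2 and Igf2bp3, the chromatin proteins Hmga1 and Hmga2, and Trim71. They were chosen by name, as the rows of the count table whose Ensembl identifier carries these symbols in GENCODE M21. All 8 were found among the 46983 genes of the table, and all 8 passed the filter on low counts that left 13961 genes for testing. RNAseq was carried out on GFP-positive neural crest cells (NCCs) sorted from E11.25 mouse embryos, with 3 control and 3 BAF155/170-deficient samples. Every embryo carried Wnt1 Cre/+ together with the Rosa26 mTmG/+ reporter, in which Cre turns on membrane GFP. The control embryos were heterozygous at the floxed loci (BAF155 flox/+ with BAF170 flox/+), and the deficient embryos were homozygous (BAF155 flox/flox with BAF170 flox/flox), so the controls had already lost a single copy of each subunit gene wherever Cre was active. BAF155 and BAF170 are core subunits of the BAF complex, which moves nucleosomes with energy from ATP. Wnt1 Cre is also active in the dorsal neural tube, so its GFP does not mark the neural crest alone. The methods count 3 sorted embryos of each genotype, as many as the samples, and do not give their litters, so p-values measure the spread between these samples.

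The 8 genes belong to a circuit that is known from stem cells and embryos. Lin28a and Lin28b bind precursors of the let-7 microRNAs and keep them from maturing, and let-7, once mature, binds matching sites in the 3′ UTR of mRNAs and lowers their output. Lin28b, Hmga2, Igf2bp1 and Trim71 are textbook targets of let-7, so a high Lin28 level goes with high levels of the others in early embryos. The Igf2bp proteins bind mRNAs, among them those of insulin-like growth factor 2, and stabilise or localise them. Hmga proteins bend AT-rich DNA and open chromatin, and Trim71 is a ubiquitin ligase that also represses mRNAs in undifferentiated cells. In the neural crest and its derivatives, Lin28 genes are known for roles in the early multipotent state, and LIN28B for its part in neuroblastoma.

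The sequences that tie the 8 genes together are those of let-7 and of its sites. A search of RefSeq by name matched 9 mature 5p members of the family in the mouse (GRCm38.p6), from 11 hairpins. The let-7a-2 hairpin was not among the 11. All 9 share the seed, bases 2 to 8, that pairs with targets. The 4 below are shown as examples of the shared seed, which capitals mark, beside bases that differ.
let-7a-5p, chr13:48538239-48538260, minus strand: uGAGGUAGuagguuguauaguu
let-7d-5p, chr13:48536078-48536099, minus strand: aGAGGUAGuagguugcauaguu
let-7i-5p, chr10:122985698-122985719, minus strand: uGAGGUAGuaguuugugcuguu
miR-98-5p, chrX:151913229-151913250, plus strand: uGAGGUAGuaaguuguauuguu

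The DNA letters that pair with this seed are CTACCTC, and they were searched on the mRNA strand of the longest 3′ UTR that GENCODE M21 gives each gene. All 8 genes held at least 1 match, against 9.02% of the 21037 genes with an annotated 3′ UTR. Several of the 8 are known for such matches, so this share is not independent of their choice. Hmga2, Lin28b, Igf2bp1 and Trim71 held 4 each and Lin28a held 2. Igf2bp2, Igf2bp3 and Hmga1 held 1 each. Of all genes with a 3′ UTR, 0.152% held 3 or more. The match nearest the stop codon of each gene is shown with 15 bases before it and 2 after, in GRCm38, read 5′ to 3′ on the strand of the gene, and capitals mark the bases that pair with the seed. A match is a description of the letters and not a measured site.
Lin28a, chr4:134005188-134005211, minus strand: gcacagcctgttgaaCTACCTCat
Lin28b, chr10:45381021-45381044, minus strand: acccgggcgggaagtCTACCTCat
Trim71, chr9:114512471-114512494, minus strand: aacattgcctaagtcCTACCTCag
Igf2bp1, chr11:95961777-95961800, minus strand: gctgtgcgaagtaaaCTACCTCaa
Igf2bp2, chr16:22059472-22059495, minus strand: acacacaaataaaagCTACCTCag
Igf2bp3, chr6:49086786-49086809, minus strand: tgcatttttactcaaCTACCTCag
Hmga1, chr17:27563277-27563300, plus strand: tcctctgttcacaaaCTACCTCtg
Hmga2, chr10:120364223-120364246, minus strand: gccgacattcaatttCTACCTCag

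The counts on genes summed to between 8191219 and 11661941 per control library and to between 12633319 and 19808620 per deficient library. Levels are given as CPM, that is, counts scaled to the TMM-normalized library size, and folds as log2 fold changes, deficient minus control. A gene was called when its Benjamini-Hochberg adjusted p over all 13961 genes, from edgeR's quasi-likelihood test, was at most 0.1, its log2 fold change was at least 0.58 in size and its mean was at least 2 CPM. Smarcc1, which encodes BAF155, had a log2 fold change of −0.71 (edgeR adjusted p = 0.0676) and Smarcc2, which encodes BAF170, of −0.11 (edgeR adjusted p = 0.251). Counts per gene do not separate the floxed exons from the rest of a transcript. Markers that define the sorted cells were low in every library, whereas macrophage markers were high. The 53 embryonic markers (mesenchymal and glial crest, sensory and autonomic neurons, neural tube) summed to between 230.4 and 437.6 CPM in control against between 141.3 and 215.7 CPM in deficient samples, and none was at 0 in all 6 libraries. The 12 macrophage markers summed to between 12158 and 14064 CPM in control against between 14170 and 15493 CPM in deficient samples. In libraries of bulk RNA, fewer cells of a type and less RNA per cell cannot be told apart.

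Hmga2 and Igf2bp3 were lower in the deficient samples, at 52.0% and 52.1% of their control means. Igf2bp1, Trim71, Lin28a and Lin28b had lower means, between 46.3% and 67.2% of the control, and did not pass the test. The groups of Igf2bp2 overlapped around nearly equal means, and Hmga1 had a slightly higher mean. Thus 2 of the 8 genes were called lower and 0 higher, where 4.88% of the 13961 tested genes were called lower and 4.94% in either direction. The median log2 fold change over the 8 genes was −0.86, and over all tested genes it was −0.02. The call of Hmga2 ended without control replicate 1 (edgeR adjusted p = 0.215), without deficient replicate 2 (edgeR adjusted p = 0.122) or without deficient replicate 3 (edgeR adjusted p = 0.203). That of Igf2bp3 ended without control replicate 1 (edgeR adjusted p = 0.248), control replicate 2 (edgeR adjusted p = 0.255), deficient replicate 2 (edgeR adjusted p = 0.173) or deficient replicate 3 (edgeR adjusted p = 0.191).

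**Figure D1:**
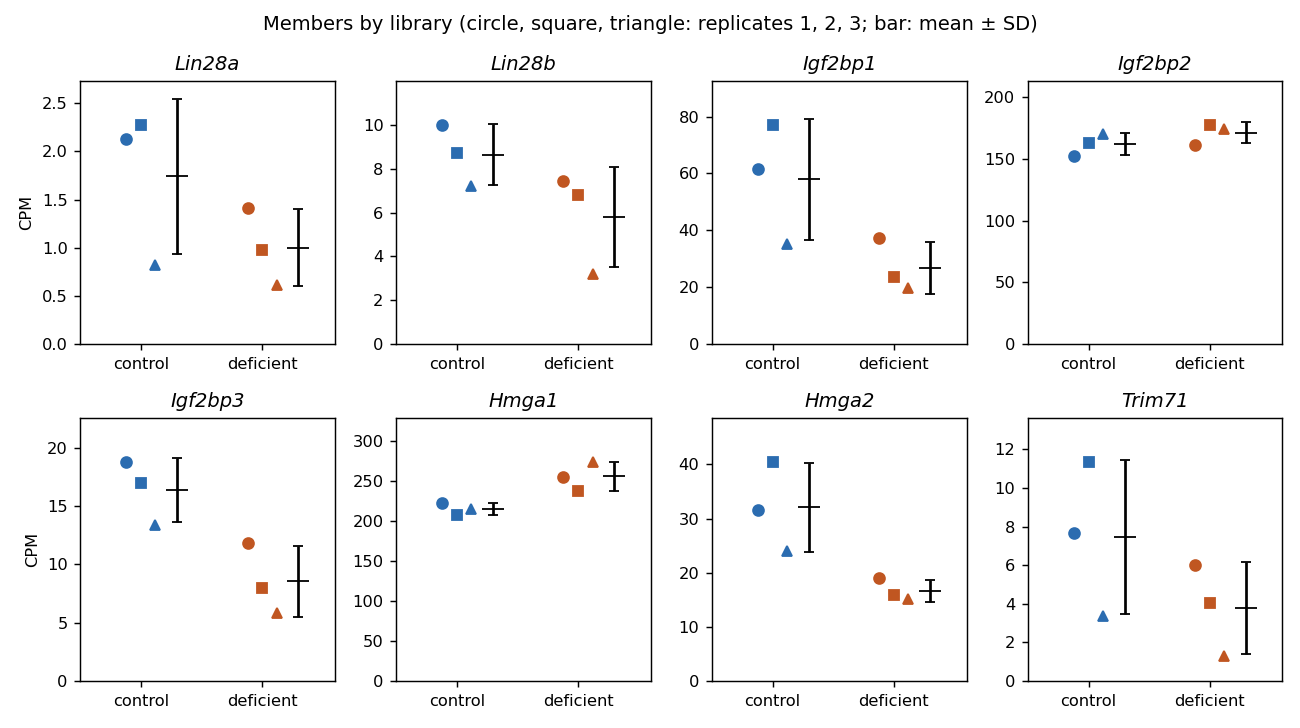
Level of each of the 8 genes in CPM (vertical axes from 0, linear, one scale per gene) in the 3 control libraries (blue) and the 3 deficient libraries (orange), with circles, squares and triangles for replicates 1, 2 and 3 and a bar for the mean ± SD of each group. For Hmga2 and Igf2bp3 every deficient point lies below every control point, for Hmga1 every deficient point lies above, and for the other 5 genes the groups overlap.

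Among the let-7 antagonists, Lin28b (ENSMUSG00000063804.7, GRCm38 chromosome 10 from 45376620 to 45486395) read 9.997, 8.70 and 7.22 CPM in controls 1 to 3 against 7.44, 6.78 and 3.18 CPM across deficient samples 1 to 3. Control replicate 3 lay just below deficient replicate 1, and the lowest value was that of deficient replicate 3. The log2 fold change of −0.59 (standard error 0.30) was not called (edgeR adjusted p = 0.233). Without deficient replicate 3 it was −0.28 (edgeR adjusted p = 0.541). Lin28a (ENSMUSG00000050966.9, chromosome 4 from 134003330 to 134018841), which is the form typical of pluripotent cells, rested on 20, 17 and 10 counts in the controls and 18, 16 and 13 counts in the deficient libraries. These are 2.13, 2.27 and 0.821 CPM in control against 1.41, 0.978 and 0.617 CPM in deficient samples. Its mean of 1.37 CPM is under the level needed for a call, and its log2 fold change of −0.79 (standard error 0.48, edgeR adjusted p = 0.314) was within the spread of the libraries. Control replicate 3 lay among the deficient values.

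Trim71 (ENSMUSG00000079259.2, chromosome 9 from 114507133 to 114564369) had 7.66, 11.4 and 3.36 CPM in control against 6.03, 4.03 and 1.28 CPM in deficient samples. Relative to its mean, its values spread more widely within each group than those of the other 7 genes, with an SD of 4.01 CPM around a control mean of 7.46 CPM. The log2 fold change was −0.99 (standard error 0.67) and was not called (edgeR adjusted p = 0.392). It was −0.54 without deficient replicate 3 (edgeR adjusted p = 0.629) and −1.49 without deficient replicate 1 (edgeR adjusted p = 0.241).

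Of the 3 Igf2bp paralogues, Igf2bp1 and Igf2bp3 had similar negative log2 fold changes, and Igf2bp2 stood apart. Igf2bp1 (ENSMUSG00000013415.9, chromosome 11 from 95957163 to 96005940), the form also known as the zipcode-binding protein, had 61.7, 77.1 and 35.1 CPM in control against 37.2, 23.6 and 19.7 CPM in deficient samples. Control replicate 3 was slightly below deficient replicate 1, and every other control was above every deficient value. It had the most negative log2 fold change of the 8, −1.11 (standard error 0.40), and was not called (edgeR adjusted p = 0.170). Leaving out control replicate 3 made it −1.39 and called (edgeR adjusted p = 0.065), and DESeq2 called it with all libraries (DESeq2 adjusted p = 0.065). Igf2bp3 (ENSMUSG00000029814.10, chromosome 6 from 49085223 to 49214957), a form common in fetal tissue and tumours, had 18.8, 17.0 and 13.4 CPM in control against 11.8, 8.004 and 5.79 CPM in deficient samples. The groups did not overlap, which held for 31.4% of all tested genes, 16.4% with the deficient values lower. The log2 fold change of Igf2bp3 was −0.96 (standard error 0.25, edgeR adjusted p = 0.0820). Malsu1, on the opposite strand, overlaps Igf2bp3 and had a log2 fold change of −0.34 (edgeR adjusted p = 0.197), and the strand setting of the counting is not given in the sources used here. Igf2bp2 (ENSMUSG00000033581.16, chromosome 16 from 22059009 to 22163299), the paralogue that adult tissues also express, had 152.5, 163.1 and 170.4 CPM in control against 161.5, 177.4 and 174.1 CPM in deficient samples. Its log2 fold change was 0.08 (standard error 0.064, edgeR adjusted p = 0.459).

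Of the Hmga pair, Hmga2 (ENSMUSG00000056758.14, chromosome 10 from 120361275 to 120476469), which is expressed mainly in embryos, had 31.6, 40.5 and 24.05 CPM in control against 19.03, 15.8 and 15.1 CPM in deficient samples. All deficient values were below all control values, and the deficient values lay closer together (SD 2.08 CPM) than the controls (SD 8.25 CPM, n = 3 each). The log2 fold change was −0.94 (standard error 0.19, edgeR adjusted p = 0.0609), and the raw counts behind it were 297, 303 and 293 in the controls and 243, 259 and 319 in the deeper deficient libraries. Hmga1 (ENSMUSG00000046711.15, chromosome 17 from 27556497 to 27563674) had 222.3, 207.5 and 214.8 CPM in control against 255.2, 237.4 and 274.2 CPM in deficient samples. Every deficient value was above every control value, as for 15.0% of tested genes. The log2 fold change of 0.25 (standard error 0.065) passed on its p (edgeR adjusted p = 0.0739), as did 4.18% of tested genes in that direction and 7.75% in the other, and was too small for a call. Hmga1b on chromosome 11 from 120762794 to 120764419 is a near-identical copy that can share reads with Hmga1, so the level of either is uncertain. Its log2 fold change was 0.08 (edgeR adjusted p = 0.462). AI413582, on the opposite strand, overlaps Hmga1 and had a log2 fold change of 0.17 (edgeR adjusted p = 0.194). The antisense genes 1700006J14Rik and 9230105E05Rik overlap Hmga2 and held 49 and 34 counts over all libraries.

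**Figure D2:**
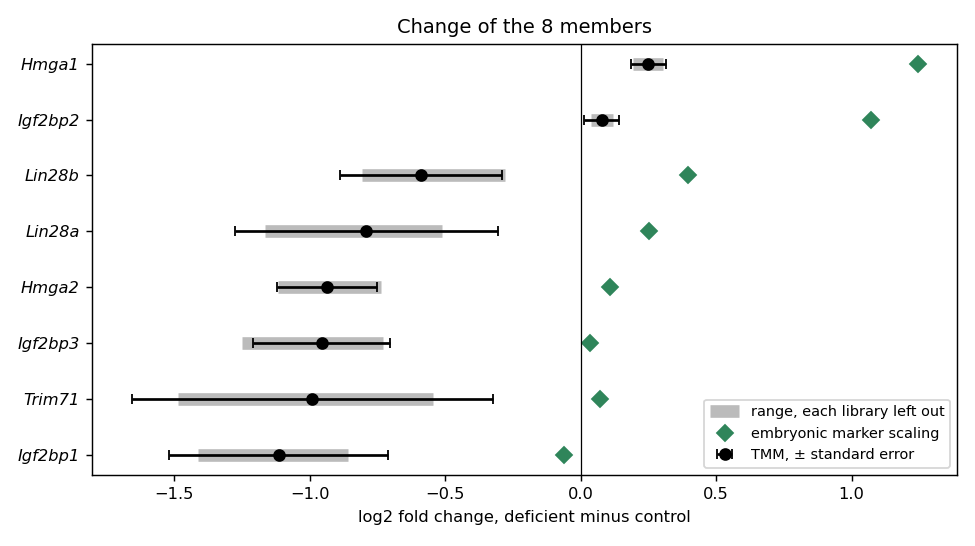
Log2 fold change (horizontal axis, deficient minus control) of each of the 8 genes with TMM normalization (black point, bar ± standard error), the range when each library was left out (grey), and the value with libraries scaled to embryonic markers (green diamond). With TMM, 6 genes lie to the left of 0, from −1.11 to −0.59, and Igf2bp2 and Hmga1 to the right at 0.08 and 0.25, while with the embryonic scaling Igf2bp1 alone is below 0, at −0.06.

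Levels between genes were set side by side per kilobase of exon. In the controls Hmga1 had the highest level, with 101 ± 3.48 CPM per kilobase (SD, n = 3), followed by Igf2bp2 with 21.9 ± 1.21, Igf2bp1 with 5.99 ± 2.19, Hmga2 with 4.73 ± 1.22, Igf2bp3 with 2.01 ± 0.340, Lin28b with 0.953 ± 0.153, Trim71 with 0.800 ± 0.429 and Lin28a with 0.436 ± 0.200 CPM per kilobase. Igf2bp1 and Hmga2 did not differ beyond their spread, nor did Lin28b and Trim71 or Trim71 and Lin28a. The order of the deficient means was the same, from 120 ± 8.66 CPM per kilobase for Hmga1 to 0.251 ± 0.0993 for Lin28a. Hmga1 and Igf2bp2 were thus the 2 most abundant in both groups and the 2 whose log2 fold changes were not negative.

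Ratios of paralogues within a library do not depend on the library's depth or scaling. These ratios were picked after the values were seen and carry no test, and as count ratios they are not corrected for gene length. Hmga2 counts were 14.2%, 19.5% and 11.2% of Hmga1 counts in the controls and 7.46%, 6.67% and 5.52% in the deficient libraries, with no overlap between the groups. Igf2bp3 was at 12.3%, 10.4% and 7.85% of Igf2bp2 in the controls and at 7.32%, 4.51% and 3.33% in the deficient libraries, again with no overlap. Igf2bp1 was at 40.4%, 47.3% and 20.6% of Igf2bp2 against 23.04%, 13.3% and 11.3%, where control replicate 3 lay below deficient replicate 1. In contrast, Igf2bp1 lay between 263% and 454% of Igf2bp3 in the controls and between 295% and 339% in the deficient libraries. Lin28a was at 21.3%, 26.2% and 11.4% of Lin28b in the controls and at 18.9%, 14.4% and 19.4% in the deficient libraries, so the groups of this pair overlapped too.

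The 6 genes with negative log2 fold changes moved between libraries alongside the embryonic markers. Their grouping was made after the values were seen and is described without a test. Together Lin28a, Lin28b, Igf2bp1, Igf2bp3, Hmga2 and Trim71 summed to 131.9, 156.9 and 84.0 CPM in control samples and to 82.9, 59.2 and 45.7 CPM in deficient samples. Over the same libraries the 53 embryonic markers summed to 326.1, 437.6 and 230.4 CPM and to 215.7, 154.5 and 141.3 CPM. Of the 44 tested markers, 17 were called lower (median log2 fold change −1.05), against 4.88% of all tested genes. Expressed per 100 CPM of embryonic markers, the 6 genes came to 40.4, 35.9 and 36.4 CPM in control samples and to 38.5, 38.3 and 32.3 CPM in deficient samples, with means of 37.6 ± 2.49 and 36.4 ± 3.51 (SD, n = 3). For Hmga2 alone this ratio was 9.69, 9.26 and 10.4 in the controls and 8.82, 10.2 and 10.7 in the deficient libraries. Over all 6 libraries it ran from 13.9 to 18.9 for Igf2bp1 and from 3.88 to 5.81 for Igf2bp3. The ratio varied more for Lin28b (1.99 to 4.39), Trim71 (0.907 to 2.80) and Lin28a (0.356 to 0.654). These 3 had the fewest counts of the 8 genes, with 520, 368 and 94 over all libraries. Counting noise and a looser link to the markers cannot be told apart here. For each of the 6 genes the groups overlapped. In contrast, Hmga1 lay between 47.4 and 93.2 CPM per 100 CPM of embryonic markers in the controls and between 118 and 194 in deficient samples, and the ranges of Igf2bp2, 37.3 to 74.0 and 74.9 to 123, nearly met.

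**Figure D3:**
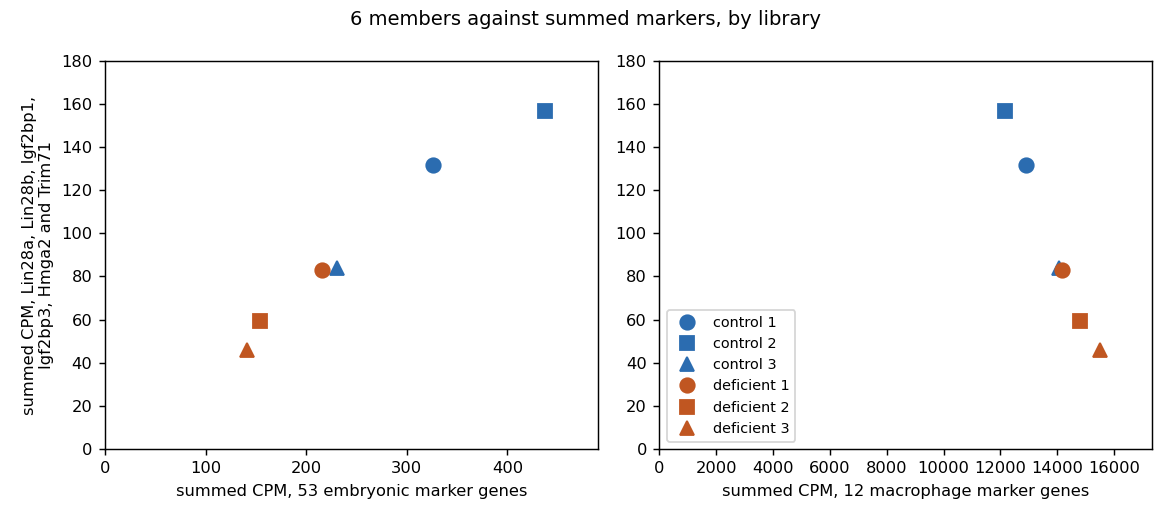
Summed CPM of Lin28a, Lin28b, Igf2bp1, Igf2bp3, Hmga2 and Trim71 (vertical axes) against the summed CPM of 53 embryonic marker genes (left) and of 12 macrophage marker genes (right), one point per library, blue for control and orange for deficient. The points run from deficient replicate 3, at 45.7 CPM of the 6 genes and 141.3 CPM of embryonic markers, to control replicate 2, at 156.9 and 437.6 CPM, while the macrophage sum falls from 15493 to 12158 CPM between the same libraries.

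When all libraries were scaled to 32 of the embryonic markers in place of TMM, the log2 fold change was 0.11 for Hmga2, 0.03 for Igf2bp3, −0.06 for Igf2bp1, 0.40 for Lin28b, 0.25 for Lin28a and 0.07 for Trim71, none of them called. Igf2bp2 at 1.07 and Hmga1 at 1.25 were then called higher. This scaling moved the median of all tested genes to 0.98, so relative to that median the first 6 genes were still lower. It takes the average embryonic marker as level and so removes any change that the genes share with these markers. The macrophage sum was 113.7% of the control in the deficient libraries, and the median log2 fold change over its 12 genes was 0.18, with 0 called. Of the other lists, summed endothelial markers (204 against 182 CPM) and neutrophil markers (25.7 against 19.3 CPM) were higher in every deficient library. Kdr alone gave 173.1 of the control and 194.5 of the deficient endothelial CPM, while Pecam1 and Cdh5 had log2 fold changes of 0.05 and 0.06, and of the neutrophil genes Ngp had −0.27. Summed epithelial markers were lower (0.986 against 2.06 CPM), and erythroid markers (20.2 against 39.4 CPM) and blood progenitor markers (72.1 against 71.4 CPM) overlapped. No list had a marker at 0 in all libraries. An exact permutation test of 3 against 3 libraries cannot give a p below 0.1, which is the value for every sum whose groups do not overlap. The part of these cells in the levels of the 8 genes was not tested.

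Across all tested genes, log2 fold changes were set beside the number of let-7 seed matches in the 3′ UTR. For the 11077 genes with no match the median was −0.01, and 4.88% of them were called lower. With 1 match, 1165 genes had a median of −0.07 and 7.55% were called lower, and with 2 matches 141 genes had a median of −0.11 with 7.80% called lower. The 27 genes with 3 or more had a median of −0.47 and 6 of them, 22.2%, were called lower. Without Hmga2, Lin28b, Igf2bp1 and Trim71, the other 23 had a median of −0.33 with 21.7% called lower. Besides Hmga2, the called ones were Fign, Trim67, Zc3hav1l, Zfp512b and Zkscan2. The length of the 3′ UTR rose along the same bins, with medians of 1121, 2269, 3601 and 4466 bases, and its part in the difference was not tested. Within the 8 genes, the 5 with 2 or more matches had log2 fold changes between −1.11 and −0.59, while those with 1 match were Igf2bp3 at −0.96, Igf2bp2 at 0.08 and Hmga1 at 0.25.

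**Figure D4:**
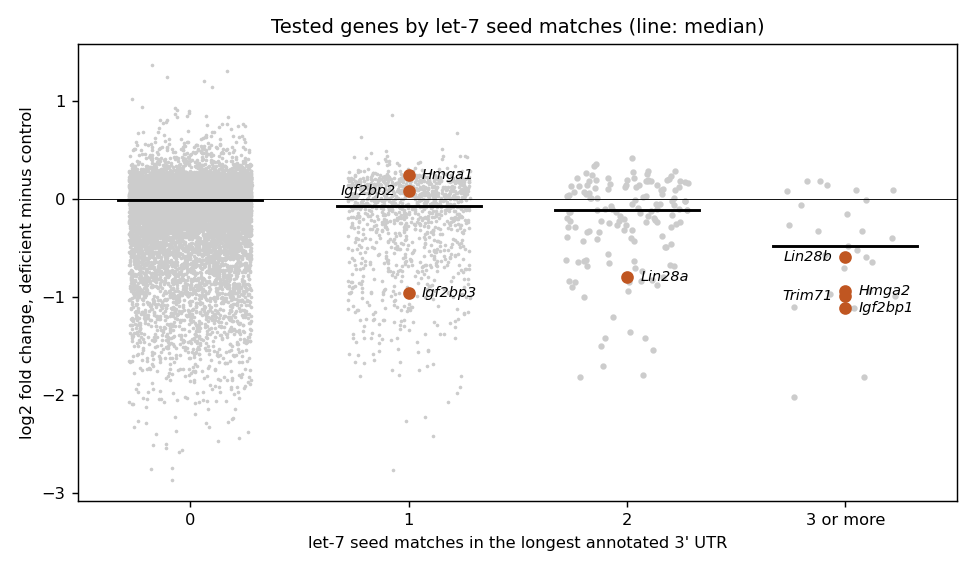
Log2 fold change (vertical axis, deficient minus control) of the tested genes with an annotated 3′ UTR, by their number of let-7 seed matches (horizontal axis), with grey points for genes, black lines for medians and orange points for the 8 genes. The medians are −0.01, −0.07, −0.11 and −0.47 from left to right, and Hmga2, Lin28b, Igf2bp1 and Trim71 lie below the median of the bin with 3 or more.

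The mature let-7 RNAs themselves are not read by poly(A) libraries, and the 12 let-7 family hairpin genes of the list held between 0 and 17 counts over all 6 libraries. Among the host transcripts of let-7 hairpins on a hand-written list, 2 were tested and 2 of 2 were called lower, against 4.88% of all tested genes. Hosts outside this list were not examined. Mir99ahg, the host of let-7c-1, had 9.57, 11.4 and 8.21 CPM in control against 6.50, 6.11 and 4.23 CPM in deficient samples, a log2 fold change of −0.79 (edgeR adjusted p = 0.0765). Mir100hg, the host of let-7a-2, had 15.1, 17.0 and 17.6 CPM in control against 10.8, 6.05 and 4.89 CPM in deficient samples, a log2 fold change of −1.22 (edgeR adjusted p = 0.0671). In both hosts the groups did not overlap, as for 16.4% of tested genes in this direction. Both calls ended when control replicate 1 or 2 or deficient replicate 2 or 3 was omitted (edgeR adjusted p between 0.113 and 0.251), and that of Mir99ahg also with offsets that remove the trend on exon length (log2 fold change −0.53).

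Promoters from RefSeq (GRCm38.p6, 250 bases before to 50 after the annotated start) were matched for 7 of the 8 genes. Igf2bp1 had no entry. The motifs searched on both strands were the E-box CACGTG, which Myc family proteins bind, the Tead core GGAATG and the GC box GGGCGG, and no promoter of the 7 held more than 1 of these motifs. The E-box occurred in Igf2bp3, with 2 copies, and in Lin28b, with 1, against 7.15% of 32851 promoters. GGAATG occurred in 0 of the 7, against 14.7% of promoters. GGGCGG occurred in Lin28a, Igf2bp2, Hmga1, Hmga2 and Trim71, against 35.7% of promoters. The promoters of Igf2bp2 and Hmga1 held 47 and 40 CpG dinucleotides, those of Igf2bp3, Trim71, Hmga2, Lin28a and Lin28b held 25, 19, 12, 10 and 8, and the median of all promoters was 7. The pair without a negative log2 fold change had the promoters richest in CpG of the 7. This was seen after the values were known, leaves out Igf2bp1, and a link between CpG and log2 fold change was not tested. Igf2bp3 and Igf2bp2 are shown because these paralogues differed both in log2 fold change and in promoter, with capitals for the E-box in Igf2bp3 and for the GC box, read on the other strand, in Igf2bp2.
Igf2bp3, chr6:49214905-49215204, minus strand: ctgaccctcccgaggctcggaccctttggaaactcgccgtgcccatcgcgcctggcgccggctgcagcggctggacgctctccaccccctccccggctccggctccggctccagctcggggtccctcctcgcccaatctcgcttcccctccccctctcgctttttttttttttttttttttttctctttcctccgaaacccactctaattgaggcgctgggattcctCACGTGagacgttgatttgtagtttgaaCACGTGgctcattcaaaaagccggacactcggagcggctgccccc
Igf2bp2, chr16:22163250-22163549, minus strand: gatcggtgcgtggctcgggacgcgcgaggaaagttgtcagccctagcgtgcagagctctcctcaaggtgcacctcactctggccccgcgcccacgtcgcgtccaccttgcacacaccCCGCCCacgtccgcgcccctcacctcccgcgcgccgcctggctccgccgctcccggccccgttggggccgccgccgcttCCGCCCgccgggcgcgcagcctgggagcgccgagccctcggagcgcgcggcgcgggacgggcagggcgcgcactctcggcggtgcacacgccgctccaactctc

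The partners and targets of the 8 genes were taken from 8 hand-written lists. These were chosen with earlier results of these data known, so their share of calls is not independent of the data. Counting each gene once, 104 listed genes were tested, 13 were called lower (12.5%, against 4.88% of all tested genes) and 0 higher. Their median was −0.20 on the log2 scale. With 1 library left out the count of 13 became 22 (control replicate 3 omitted), 20 (deficient replicate 1 omitted), 1 (deficient replicate 2 omitted) or 0 (omitting the first or second control, or the third deficient sample). Of the 23 let-7 targets, 2 were called lower, with a list median of −0.19. These were Insr, the insulin receptor, at 18.4 ± 4.17 and 9.92 ± 1.28 CPM (log2 fold change −0.89, edgeR adjusted p = 0.0483), and Mycn, a driver of neuroblastoma that acts at E-boxes, at 6.63 ± 2.69 and 3.14 ± 1.08 CPM (SD, n = 3; log2 fold change −1.07, edgeR adjusted p = 0.0965). The call of Mycn ended with limma-voom (adjusted p = 0.109) and with the filter at 2 CPM (edgeR adjusted p = 0.113). Irs2 and Igf1r, which act in the same insulin and IGF signalling, had log2 fold changes of −0.83 (edgeR adjusted p = 0.112) and −0.62 (edgeR adjusted p = 0.323). Of the 20 genes of microRNA processing, 3 were called lower, with a list median of −0.27. Dgcr8, the partner of Drosha, had a log2 fold change of −0.70 (edgeR adjusted p = 0.0672). Tnrc6b and Tnrc6c, which link Argonaute to mRNA decay, had −0.68 (edgeR adjusted p = 0.0901) and −0.71 (edgeR adjusted p = 0.0672). With offsets that remove the trend on exon length, Dgcr8 was at −0.57, Tnrc6b at −0.31 and Tnrc6c at −0.47, none of them called. Dicer1, which cuts the let-7 precursor and is also on the list of let-7 targets, had 45.9, 51.4 and 40.3 CPM in control against 33.8, 30.7 and 30.0 CPM in deficient samples. Its log2 fold change of −0.54 passed on its p (edgeR adjusted p = 0.0455) and was too small for a call, and with the length offsets it was −0.23 (edgeR adjusted p = 0.124).

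Among 7 known Igf2bp target RNAs, H19 was called lower, and the list median was −0.13. H19, an imprinted growth-restraining RNA bound by Igf2bp proteins, had 47.9, 78.5 and 26.8 CPM in control against 13.4, 9.41 and 10.7 CPM in deficient samples (log2 fold change −2.18, edgeR adjusted p = 0.0880). Its call ended with limma-voom (adjusted p = 0.101), without the count filter (edgeR adjusted p = 0.115) and when any sample but control replicate 3 was omitted. Igf2, the growth factor gene after which the family is named, had 37.1, 70.2 and 23.2 CPM against 16.1, 10.5 and 9.73 CPM. Its groups did not overlap, and its log2 fold change of −1.84 was not called (edgeR adjusted p = 0.112). Myc and Cd44, the other named targets, had log2 fold changes of −0.45 (edgeR adjusted p = 0.417) and 0.20 (edgeR adjusted p = 0.106). The m6A factors write, read or erase the adenosine mark that Igf2bp proteins can bind. Of the 22 Igf2bp partners and m6A factors, 1 was called lower, near the share of all tested genes (4.88%). It was Ythdc2, an m6A-binding helicase, at −0.70 (edgeR adjusted p = 0.0964). That call ended with DESeq2 (adjusted p = 0.137), library totals (edgeR adjusted p = 0.134), the length offsets (edgeR adjusted p = 0.134) and either other count filter. Hnrnpu, Syncrip and Dhx9, which with Ybx1 form an Igf2bp1 complex on Myc mRNA, passed on their p and were too small for a call, at −0.53 (edgeR adjusted p = 0.0455), −0.45 (edgeR adjusted p = 0.0483) and −0.41 (edgeR adjusted p = 0.0916). On p alone, 7.75% of tested genes passed in this direction. The length offsets gave Hnrnpu −0.31 (edgeR adjusted p = 0.0794), Syncrip −0.22 (edgeR adjusted p = 0.1004) and Dhx9 −0.23 (edgeR adjusted p = 0.141). Dhx9 also did not pass with library totals (edgeR adjusted p = 0.107) or the filter at 2 CPM (edgeR adjusted p = 0.105). Ybx1 had 0.06 (edgeR adjusted p = 0.515). The list median was −0.13.

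Other high mobility group genes are relatives of Hmga1 and Hmga2 by family name rather than in sequence. Of 11 tested, 2 were called lower, against 4.88% of all tested genes, and the list median was −0.07. Hmgb3, which is mainly embryonic, had 12.9, 13.5 and 7.47 CPM in control against 6.42, 3.48 and 4.94 CPM in deficient samples (log2 fold change −1.18, edgeR adjusted p = 0.0671). Hmgb1, the widely expressed member, had a log2 fold change of −0.65 (edgeR adjusted p = 0.0653), which fell just short of the fold limit with library totals. Hmgn1 and Hmgb2 had −0.50 (edgeR adjusted p = 0.162) and −0.45 (edgeR adjusted p = 0.220). Of 10 relatives of Lin28 and Trim71, that is, genes with cold shock or Trim-NHL domains, Trim2 was called lower at −1.01 (edgeR adjusted p = 0.0982; 0.110 with the length offsets or the filter at 2 CPM), and the list median was −0.10. Ybx2 and Csdc2, cold shock proteins with means below 2 CPM, had −1.85 (edgeR adjusted p = 0.0600) and −1.82 (edgeR adjusted p = 0.0863), and Trim32 had −0.31 (edgeR adjusted p = 0.255).

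The 17 fetal growth genes, many of them imprinted and highly expressed before birth, had a list median of −0.50. Their log2 fold changes were negative in 16 of 17, where those of 7305 of the 13961 tested genes were negative. Of the 17, 3 were called lower, against 4.88% of all tested genes. Besides H19 and Mycn, Dlk1, which restrains differentiation, was called lower at 10.2 ± 4.50 and 4.45 ± 1.37 CPM (SD, n = 3; log2 fold change −1.19, edgeR adjusted p = 0.0984), a call that ended with limma-voom (adjusted p = 0.131) and with the filter at 2 CPM (edgeR adjusted p = 0.113). Meg3, the noncoding partner of Dlk1 at its imprinted locus, had 30.2, 49.2 and 19.7 CPM against 11.4, 13.9 and 7.55 CPM (log2 fold change −1.59, edgeR adjusted p = 0.104). Peg3 had a log2 fold change of −1.38 (edgeR adjusted p = 0.114). In H19, Igf2, Meg3 and Peg3 every deficient value was below every control value, as for 16.4% of tested genes. This also held for Plag1 and Cdkn1c, while Plagl2 was higher in every deficient sample and the groups of the remaining listed genes overlapped. In H19, Igf2, Meg3 and Peg3 control replicate 2 was the highest and control replicate 3 the lowest control. This order was also seen in Igf2bp1, Hmga2, Trim71 and the embryonic marker sum.

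**Figure D5:**
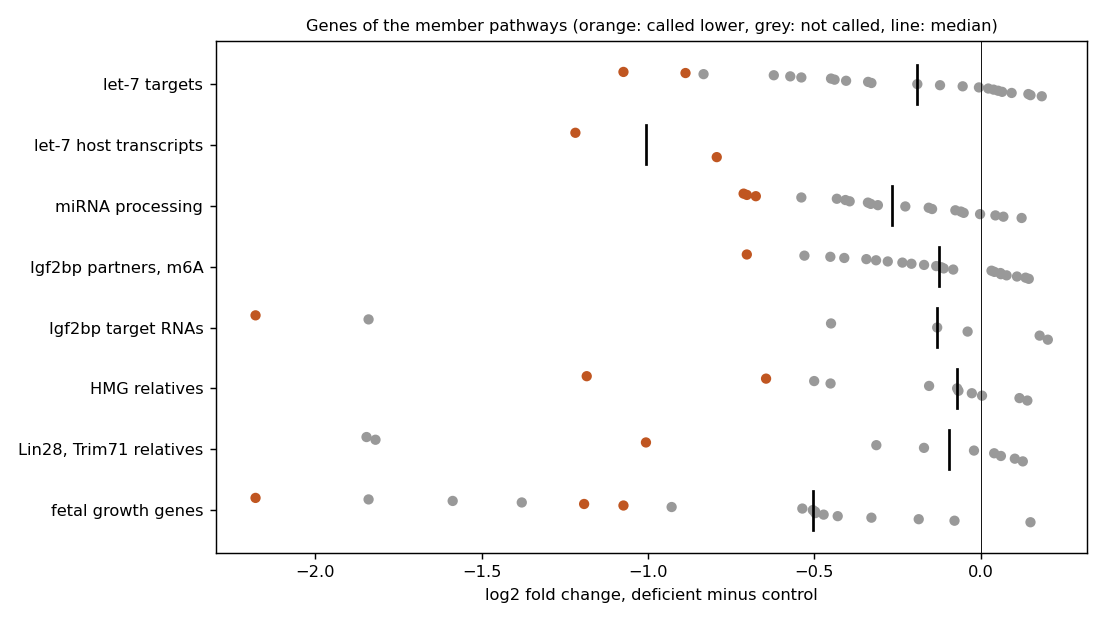
Log2 fold change (horizontal axis, deficient minus control) of every tested gene of the 8 lists (rows), orange where called lower and grey where not called, with a black line at the median of each list. The medians lie between −0.50 for fetal growth genes and −0.07 for HMG relatives, except for the 2 let-7 host transcripts, which lie at −1.22 and −0.79.

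Likeness to the 8 genes was measured over the 6 libraries as the root mean square difference between log2 CPM profiles, each centred on its own mean, from the average profile of the 7 with a mean of at least 2 CPM. Among 11787 genes, the 5 most alike were Arhgap5 (0.053), Ift80 (0.064), Adamts1 (0.065), Armcx2 (0.072) and Plekha5 (0.072, all on the log2 scale). The 7 genes themselves lay farther from their own average, from 0.21 for Lin28b to 0.57 for Trim71, so the average profile stands for none of them closely. The log2 fold changes of the 5 were between −0.66 and −0.56, and Plekha5 was the 1 of the 5 that was called (edgeR adjusted p = 0.0940), though not by DESeq2, where its log2 fold change was −0.57.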

How the data were processed

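The data are RNAseq libraries of sorted GFP-positive NCCs, 3 control and 3 BAF155/170-deficient, grouped by the labels. The authors made strand-specific poly(A) libraries, trimmed reads with cutadapt 1.18, checked them with FastQC 0.11.7, aligned them to GRCm38 with STAR and assigned read pairs to genes by featureCounts. What the authors deposited are raw counts per gene. The annotation release, the strand setting and the handling of multi-mapping reads are not given in the sources used here. Of 46983 identifiers, 46488 matched GENCODE M21.

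The 8 genes, the gene lists and the marker lists were chosen with earlier results of these data known. Counts were fitted in R 4.3.3 with edgeR 4.0.16: filterByExpr (minimum count 10, minimum total 15), TMM, a robust quasi-likelihood fit with condition as its only term, and Benjamini-Hochberg adjustment over 13961 genes. The common biological coefficient of variation, a single value for all tested genes, was 12.8%. The study's methods give the thresholds of the calls and used limma, so limma-voom (limma 3.58.1) is among the alternatives, as are DESeq2 1.42.0, library totals, scaling to the median of 32 embryonic markers, other filters and thresholds, a replicate block, offsets that remove a trend on exon length (lowess, span 0.3), and each library left out. Depth was 8191219 to 19808620 counts per library, and genes under about 2 CPM rest on few counts. The procedure was tested on simulated data with the same variation for every gene, larger changes than those of the 8 genes and no shift shared by genes within a library. Such data are simpler than these, so that test does not cover the dependence of the calls on single libraries.

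Named from the lists were the called genes, at most 4, and up to 4 tested genes with the largest log2 fold change in size. Ybx1 was named after its values were seen. Genes named for their let-7 matches were chosen after their values were seen. Let-7 matches were counted in the longest annotated 3′ UTR of each gene of GENCODE M21, and sequences of microRNAs and promoters are from RefSeq (GRCm38.p6). Older symbols of 3 listed genes were matched through RefSeq synonyms, Mir100hg among them, and Mirlet7bhg was not matched. Summaries and figures were made with Python 3.11.15, pandas 2.3.3, numpy 2.4.6, scipy 1.17.1 and matplotlib 3.10.9.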

Additional observations from a re-analysis of the deposited data

How the results depend on the processing

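The count of 2 of the 8 genes called lower held with limma-voom, library totals, no filter, a filter at 2 CPM, the length offsets and an adjusted p alone, and was 3 with DESeq2. With each library left out it ran from 0 to 3, that of the listed pathway genes (13) from 0 to 22 and that of all genes (681) from 0 to 1219, with 0 of all genes without control replicate 1 (2547 at an unadjusted p under 0.05), 17 without deficient replicate 3 and 61 without control replicate 2. At an adjusted p of at most 0.05 the 3 counts were 0, 1 and 94. With the adjusted p alone, 21 pathway genes and 1082 genes in all were lower, and with the filter at 2 CPM 8 pathway genes. With the embryonic scaling the 3 counts were 0, 2 and 58 (9815 genes were then called higher). By definition, a stricter threshold cannot raise a count and a looser one cannot lower it. Leaving out a library moved the count of all genes to either side of 681, depending on which library it was. The cause of this and of the other differences was not tested. The 3 control and 3 deficient samples share replicate numbers only: with a replicate block 5 of the 8 genes (Lin28b, Igf2bp1, Igf2bp3, Hmga2 and Trim71) and 1143 of all genes were called lower, H19 lost its call (edgeR adjusted p = 0.130), and deviations of same-numbered samples correlated at 0.03, −0.03 and 0.29. Under the 16 alternatives Igf2bp2 and Hmga1 kept positive log2 fold changes and Igf2bp1 a negative one. Lin28a has no value with the filter at 2 CPM.

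With the embryonic scaling, which moved the median of all genes to 0.98, these log2 fold changes turned positive: Hmga2 0.11, Igf2bp3 0.034, Trim71 0.072, Lin28a 0.25, Lin28b 0.40, Insr 0.15, Irs2 0.24, Igf1r 0.44, Mir99ahg 0.22, Tnrc6c 0.32, Dgcr8 0.32, Tnrc6b 0.34, Dicer1 0.48, Ythdc2 0.31, Hnrnpu 0.46, Syncrip 0.55, Dhx9 0.59, Myc 0.61, Hmgb1 0.38, Hmgn1 0.54, Hmgb2 0.55, Trim2 0.030, Trim32 0.71, Arhgap5 0.42, Ift80 0.45, Adamts1 0.37, Armcx2 0.39 and Plekha5 0.43. The embryonic marker sum lay between 44.6% and 61.3% of the control and the macrophage sum between 110% and 118% with each library left out. Depth limits Lin28a most, with 10 to 20 counts per library.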
